A study of Mus musculus with 7 samples.

Results

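Binding of Fos was examined at the genes of the 3 neuronal pentraxins, Nptx1, Nptx2 and Nptxr, in mouse hippocampus. These genes, and the gene lists read beside them, were chosen with earlier results of these data known. The sites were chosen by position alone: peaks of any of the 6 deposited lists within 50 kb of the span of a member gene in the assembly GRCm38.p6. Overlapping peaks were merged into regions, which gave 43 regions near the 3 genes out of 68873 in all lists together. All mice were wild-type C57BL/6J and 2 months old. The control group received saline (PBS). The other group received kainic acid, which activates glutamate receptors and so brings on seizures. It was given into the peritoneum at 10 mg/kg, as 2 injections 30 min apart. Tissue was taken 1 hour after the first of them, from animals whose seizures had reached level 4. Chromatin of the whole hippocampus was immunoprecipitated with a monoclonal antibody against Fos in 3 libraries per group. Neither the number of animals in a library nor whether libraries came from separate animals is stated, so a p-value here measures only the spread between these libraries. In whole tissue, more cells with a bound site and more binding per cell cannot be told apart.

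Neuronal pentraxins are proteins of excitatory synapses whose C-terminal domain resembles that of the blood pentraxins. Nptx1 and Nptx2 (also called Narp or Np2) are secreted, whereas Nptxr is anchored in the membrane, and the proteins assemble with each other and gather AMPA-type glutamate receptors at synapses. Nptx2 is known as an immediate early gene that neurons switch on with activity. Fos pairs with Jun proteins to form AP-1, whose sites were searched for here with the letters TGANTCA, where N is any base.

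Kainic acid replicates 1, 2 and 3 gave lists of 15009, 63197 and 29650 peaks, and saline replicates 1, 2 and 3 gave 7, 3277 and 2. The narrowest peak measured 230, 207 and 270 bp in the kainic acid lists and 202 bp in saline replicate 2, but 49 and 76 bp in saline replicates 1 and 3. With 7 and 2 peaks in the genome, saline replicates 1 and 3 could hardly list any given gene, so the saline side of what follows rests on replicate 2. Absence from a list means only that no peak passed the authors' cutoff in that library.

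All 3 genes had Fos sites after kainic acid. Nptx1 had 3, 12 and 5 peaks within 50 kb in kainic acid replicates 1, 2 and 3, against 0, 1 and 0 in the saline replicates. Nptx2 had 3, 8 and 6 peaks with kainic acid and none in any saline list. Nptxr had 5, 20 and 10 peaks with kainic acid and 0, 5 and 0 with saline. At Nptx1 and Nptx2 every kainic acid list had more peaks than every saline list, while at Nptxr kainic acid replicate 1 and saline replicate 2 were level at 5. Saline replicate 2 alone supplied the saline peaks, and without it no saline peak remained near any of the 3 genes. Of all 21887 protein-coding genes, 33.5% had groups that did not overlap in this way, and of those with a span of 5 to 30 kb, the class of the 3 pentraxin genes, 29.9%. The unequal lengths of the lists enter these shares.

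**Figure D1:**
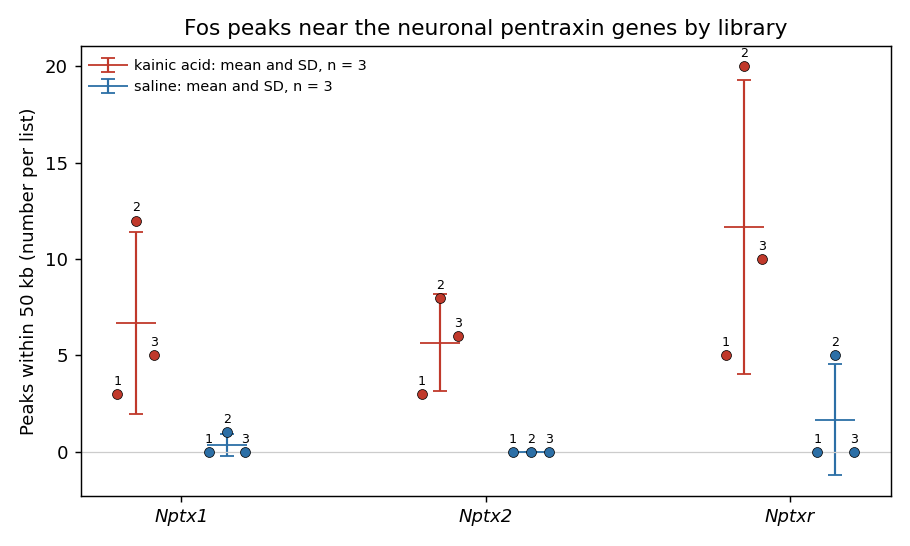
Number of Fos peaks within 50 kb of each gene (y axis), 1 numbered point per library (the replicate number), with horizontal bars for the group mean and error bars for the SD (n = 3). Kainic acid libraries are red and saline libraries blue. Nptx2 has no saline peak, and at Nptxr saline replicate 2 reaches the 5 peaks of kainic acid replicate 1.

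Over the 3 genes together, the kainic acid lists held 11, 40 and 21 peaks and the saline lists 0, 6 and 0. That is a mean of 24.0 ± 14.7 peaks with kainic acid against 2.00 ± 3.46 with saline (SD, n = 3 each). On the scale of log10(number + 1) they were 1.34 ± 0.267 and 0.282 ± 0.488, a difference of 1.06 that exceeded the SD of either group. The unequal lengths of the lists enter this difference too. The two-sided exact permutation test over 20 assignments gave p = 0.1, which is as low as this test can go with 3 libraries in each group.

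Set against the length of each list, the pentraxin sites took a like share in the 3 kainic acid libraries. It was 7.33 per 10000 peaks in replicate 1 (95% Clopper-Pearson interval 3.66 to 13.1), 6.33 in replicate 2 (4.52 to 8.62) and 7.08 in replicate 3 (4.38 to 10.8). In saline replicate 2 it was 18.3 per 10000 (6.72 to 39.8), from 6 peaks, and this interval overlapped those of the kainic acid lists. The intervals cover counting error only. For the 3 genes together, a larger share of a list with kainic acid was not seen. Of the 6 saline peaks, 5 lay near Nptxr (15.3 per 10000) and 1 near Nptx1 (3.05 per 10000, 0.0773 to 17.0). For Nptx2 the share was 2.00, 1.27 and 2.02 per 10000 in kainic acid replicates 1, 2 and 3, and 0 (0 to 11.3) in saline replicate 2. The larger number of peaks came with longer lists, and the part of list length in it was not tested.

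The peaks near the 3 genes fell into 40 regions with a kainic acid peak and 3 with a saline peak only. Of these 40, 10 had a peak of every kainic acid library, 10 had peaks of 2 libraries and 20 of a single library, which was replicate 2 each time. In the whole series, 35458 of 66683 regions with a kainic acid peak were in replicate 2 alone, which has the longest list. Regions in at least 2 lists made up 50.0% (33.8 to 66.2), against 40.3% of all 66683 regions with a kainic acid peak. Regions in at least 2 lists are called kainic acid regions below. Nptx1 had 5 of them, Nptx2 had 5 and Nptxr had 10.

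All 3 genes thus had a kainic acid region within 50 kb, as did 62.7% of protein-coding genes. All 3 also had a region in all 3 lists, with 3 at Nptx1, 3 at Nptx2 and 4 at Nptxr, and such a region lay near 42.5% of protein-coding genes, while 9.56% had at least 3. Having a site is therefore common, and the number of sites is less so. At least 5 kainic acid regions lay near 12.3% of protein-coding genes, and at least 10, as at Nptxr, near 2.39%. Among the 9347 genes with a span of 5 to 30 kb, these shares were 7.6% and 0.417%. In that class 64% had at least 1 kainic acid region, 41% had a region in all 3 lists and 5.99% had at least 3 such regions. Of the 10 kainic acid regions of Nptxr, only 3 lay inside its span. The other 7 had their median summit inside Dnal4 or Sun2 or within 343 bp of Dnal4. The counts at the 3 genes depended on kainic acid replicates 2 and 3. Without replicate 2 they were 3, 3 and 4 for Nptx1, Nptx2 and Nptxr, and without replicate 3 they were 3, 3 and 5.

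**Figure D2:**
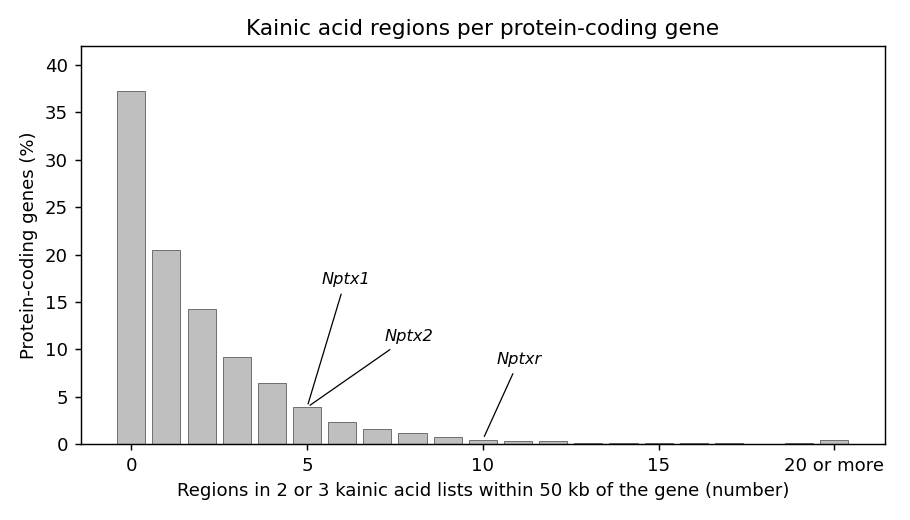
Share of the 21887 protein-coding genes (y axis, %) by the number of kainic acid regions within 50 kb (x axis, genes with 20 or more in the last bar). Nptx1 and Nptx2 stand at 5 and Nptxr at 10, where the median gene has 1.

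**Figure D3:**
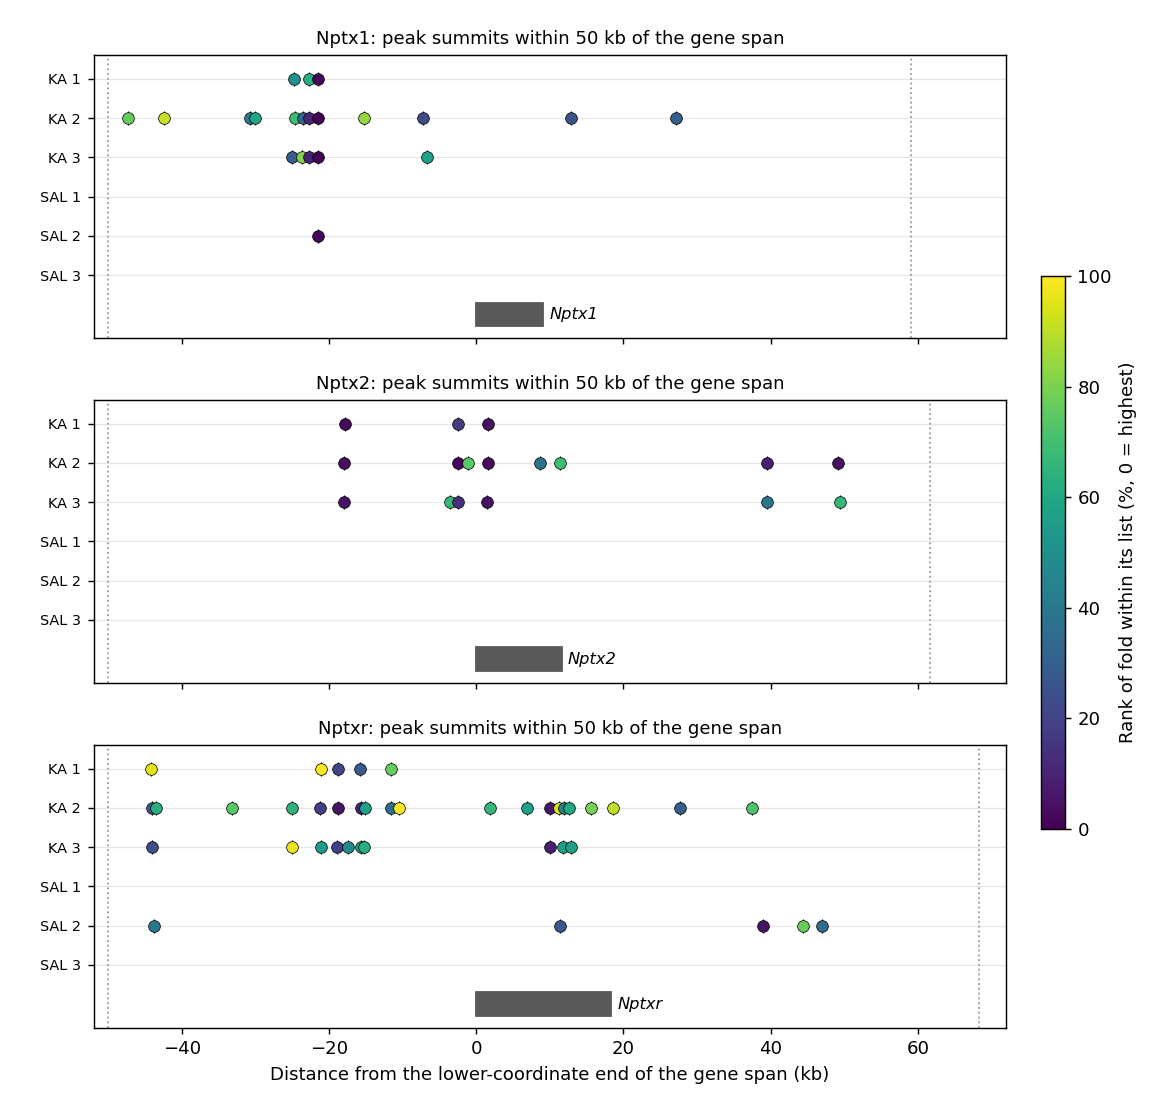
Summits of all peaks within 50 kb of each gene span, by list (KA, kainic acid; SAL, saline; numbers are replicates), against the distance from the lower-coordinate end of the span (x axis, kb). Colour gives the rank of a peak's fold within its own list in percent, with 0 for the highest fold, grey boxes are the gene spans and dotted lines the 50 kb limits. Nptx1 sites stand beside the gene, whereas Nptx2 and Nptxr also have sites inside the span.

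Nptx1 (gene ID 18164) spans 9102 bp on chromosome 11, 119538719 to 119547820. Its sites did not touch the gene itself. All 5 kainic acid regions lay on the lower-coordinate side, between 6.25 and 24.4 kb away, and 4 of them stood in a group 21.03 to 24.4 kb from the span. The strongest of the group lay at chr11:119516828-119517689. Its fold, the authors' ratio of the summit to the local background in that library, was 10.7, 25.5 and 12.5 in kainic acid replicates 1, 2 and 3. By fold it ranked 197 of 15009, 63 of 63197 and 164 of 29650, that is 1.31%, 0.0997% and 0.553% from the top of each list. This was the 115th region by mean rank among the 11937 found in all 3 lists. The summits of the 3 libraries lay within 46 bp of each other.

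The same Nptx1 site carried the only saline peak near this gene. In saline replicate 2 its fold was 6.05, rank 65 of 3277 or 1.98%, with the summit at 119517255, against 119517253, 119517238 and 119517207 in kainic acid replicates 1, 2 and 3. Solved from fold and p, 47, 101 and 83 reads covered the summit in the kainic acid libraries over local backgrounds of 3.499, 3.01 and 5.70 reads. In saline replicate 2 it was 20 reads over 2.47. These read numbers are not scaled between libraries. Of the 115 regions at least as strong in mean rank, this one included, 14 had a saline peak, or 12.2% (6.82 to 19.6), against 2.16% of all regions in 3 lists. Within 50 kb, 3.16% of protein-coding genes had a region that was in all 3 kainic acid lists and in a saline list. Nptxr had such a region too, at the start of Sun2.

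The neighbours of this Nptx1 site were weaker. The region at chr11:119515748-119516304 was in all 3 lists with folds of 4.07, 8.06 and 6.67, and ranked at 62.8%, 10.7% and 9.64%. The region at chr11:119513592-119514341 had folds of 4.32, 3.78 and 4.77 and ranked at 51.1%, 68.9% and 29.3%. Its summits lay 455 bp apart, so the libraries share the merged region but not a summit. Between them stood chr11:119514802-119515324, which replicate 1 did not list (5.18 and 3.26 in replicates 2 and 3). The nearest protein-coding gene to all 4 regions was Endov, an endonuclease gene whose span ends 2454 to 5773 bp from the median summit of each. The region closest to Nptx1 itself, chr11:119531344-119532471, had folds of 5.94 and 3.77 in replicates 2 and 3. In that region the summits of the libraries lay 537 bp apart, so the merged region spans summits that are not shared. Another 7 regions near Nptx1 were in replicate 2 alone, including the only ones on the higher-coordinate side, 3.56 and 17.9 kb from the span.

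Nptx2 (gene ID 53324) spans 11592 bp on chromosome 5, 144545887 to 144557478, and no other protein-coding gene lies within 50 kb of it. Its 3 regions in all lists stood close to the gene. The region inside the span, chr5:144546652-144547788, had folds of 8.22, 11.8 and 8.16 in kainic acid replicates 1, 2 and 3. It ranked at 4.40%, 3.04% and 4.33% (places 660, 1920 and 1283), a mean of 3.92% ± 0.765 (SD, n = 3). The 3 libraries thus placed it alike in percent, a measure that also depends on the length of each list. Its summits lay 1.504 to 1.542 kb from the lower-coordinate end of the span, within 38 bp of each other. The gene table has no strand and no exons, so these positions are given by coordinate only.

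Outside the span, Nptx2 had a region at chr5:144527253-144528585, 17.3 kb away, with folds of 9.60, 11.6 and 7.95. It ranked at 2.15%, 3.21% and 4.79%, the best mean rank near this gene, 3.38%. The third region, chr5:144542257-144543902, lay 1.98 kb from the span and had folds of 5.78, 15.1 and 5.97. Here replicate 2 stood apart, at a rank of 1.21% against 17.9% and 13.9% in replicates 1 and 3, although the best summits were only 22 bp apart. In replicate 3 this region held 2 peaks. All 3 regions of Nptx2 ranked at 17.9% or better in every kainic acid list, and none was in a saline list.

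On the other side of Nptx2, a pair of regions was in replicates 2 and 3 only. They lay 27.7 kb (chr5:144585130-144585821) and 37.2 kb (chr5:144594628-144595431) from the span. Their folds in replicates 2 and 3 were 8.56 and 4.35 for the nearer and 10.6 and 3.58 for the farther, so the farther ranked at 4.40% in replicate 2 and at 66.6% in replicate 3. A further 3 regions, among them the one nearest the lower-coordinate end at 326 bp, were in replicate 2 alone.

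**Figure D4:**
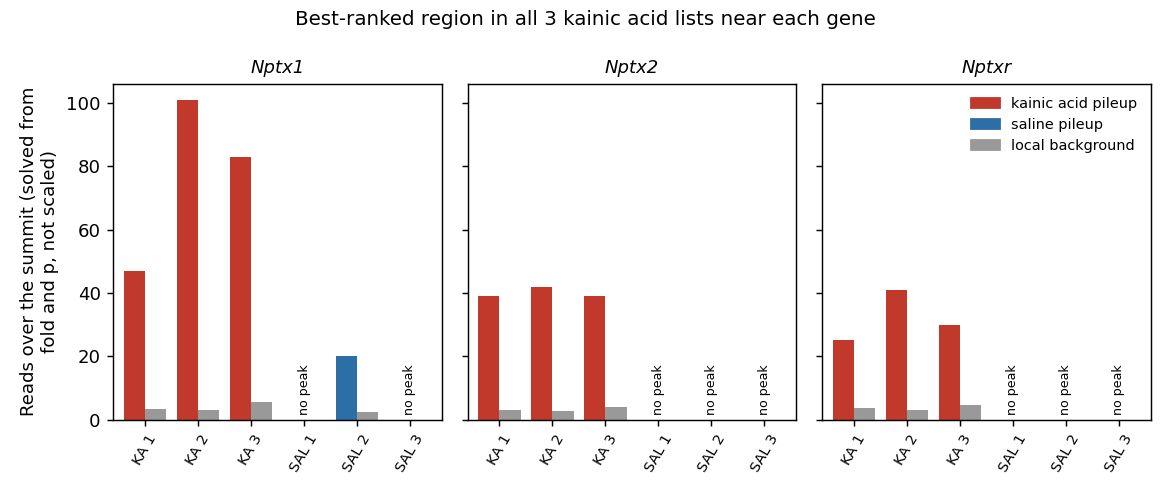
Reads over the summit (coloured bars) and local background (grey bars) at the region of best mean rank among those in all 3 kainic acid lists near each gene, by library (KA, kainic acid; SAL, saline; numbers are replicates). Values were solved from the deposited fold and p and are not scaled between libraries. Nptx1 reaches 101 reads in kainic acid replicate 2, and its 20 reads in saline replicate 2 are the only saline bar.

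Nptxr (gene ID 73340) spans 18359 bp on chromosome 15, 79786351 to 79804709, in a gene-dense stretch. Sun2 (a protein of the inner nuclear membrane), Dnal4 (a dynein light chain), Cbx6 (a Polycomb protein) and the overlapping locus Npcd also lie within 50 kb. The span of Npcd, 79786351 to 79834333, holds all of Nptxr and all of Cbx6. A site inside either gene is therefore inside Npcd as well. Nptxr had the most regions of the 3 genes, and its best region in all 3 lists ranked lower than theirs. Its 4 regions in all 3 lists lay 15.3 to 43.6 kb from the span on the lower-coordinate side, 3 of them inside Dnal4 and 1 at the start of Sun2. The strongest, chr15:79766856-79769373 inside Dnal4, had folds of 5.65, 10.3 and 5.55 and ranked at 20.2%, 4.86% and 18.7%. The region at chr15:79770369-79771016, also inside Dnal4, had folds of 5.18, 8.15 and 3.73. The third of them, chr15:79764524-79765743, reached 6.61 in replicate 2 but 2.57 in replicate 1, close to the bottom of that list at 99.2%.

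Within Nptxr itself the sites rested on kainic acid replicates 2 and 3. The region at chr15:79795838-79796653 had folds of 9.81 and 6.93 there, ranks of 5.70% and 8.36%, with 74 and 52 reads over the summit. Replicate 1, the shortest of the kainic acid lists, had no peak inside Nptxr. The other regions of the span with 2 lists, chr15:79798061-79798685 and chr15:79798780-79799306, had folds between 3.77 and 4.59. The end of the span at the higher coordinate had a peak 169 bp away in replicate 2 alone, with a fold of 3.18.

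**Figure D5:**
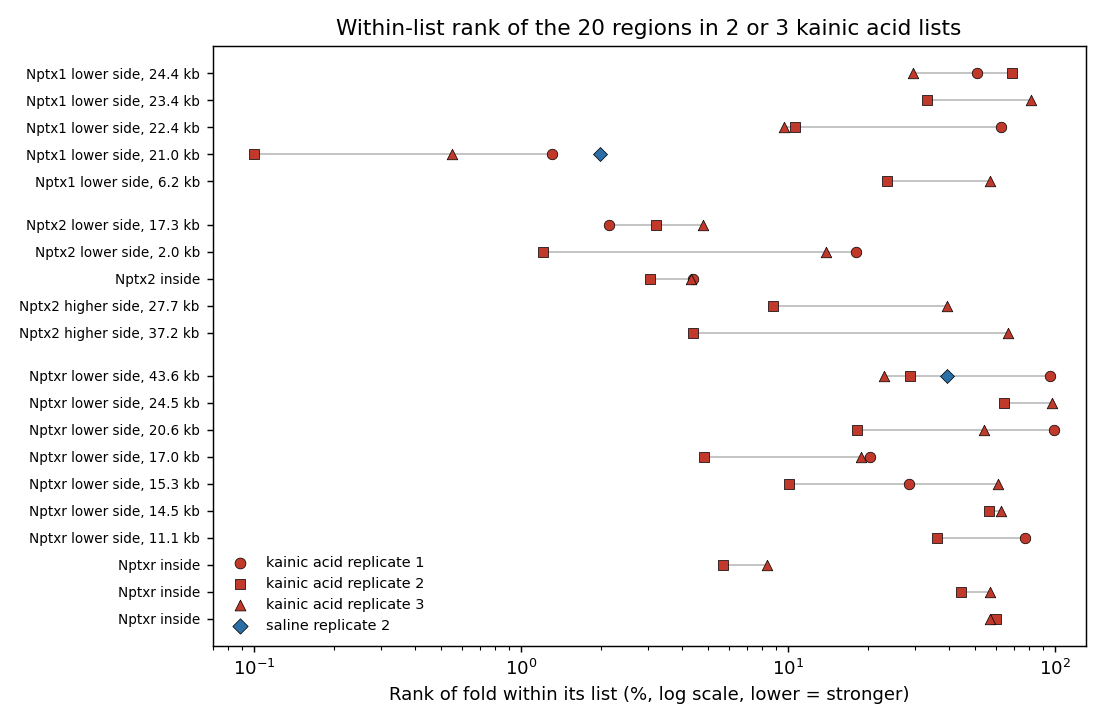
Rank of the fold within its list (x axis, %, log scale, low values are strong) for the 20 kainic acid regions, listed by gene and by side and distance from the gene span. Red marks are kainic acid libraries and blue diamonds saline replicate 2. The Nptx1 region at 21.03 kb lies at 1.31% or below in every kainic acid list. Within each kainic acid list, the 3-list regions of Nptx2 lie below those of Nptxr.

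Saline replicate 2 had 5 peaks near Nptxr. A peak at the start of Sun2 (fold 4.36) overlapped the region at chr15:79741842-79742720, which had folds of 2.99, 5.54 and 5.22 in kainic acid replicates 1, 2 and 3. Another, inside Nptxr (fold 4.62), met a peak of kainic acid replicate 2 with a fold of 2.97. The other 3 lay inside both Cbx6 and Npcd, 20.4 to 28.5 kb from Nptxr, with folds of 5.58, 3.62 and 4.44 and no kainic acid peak. The strongest of these, at chr15:79825147-79825452, ranked at 4.70% of the saline list. Nptxr was thus the only one of the 3 genes with regions called in saline and not with kainic acid. Near the 3 genes 40 of 43 regions had a kainic acid peak, against 66683 of 68873 in the whole series. The share of all genes with a region called in saline only was not counted.

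None of the 3 pentraxin genes matched an entry of the promoter table used here. Promoter windows of 2 protein-coding neighbours of Nptxr, however, met kainic acid regions counted for Nptxr, and they are shown because the counted sites there lie at the start of another gene. The windows run from 250 bases before to 50 bases after the start of transcription and come from RefSeq, build GRCm38.p6, both on the minus strand. They are written 5′ to 3′, with the bases inside the region in capitals. The Sun2 window, chr15:79742487-79742786, shares 234 bases with the region in all 3 kainic acid lists and saline replicate 2. The Dnal4 window, chr15:79774418-79774717, shares 92 bases with the region at chr15:79774626-79775218, which was in kainic acid replicates 1 and 2 (folds 3.68 and 5.05).
Sun2 promoter: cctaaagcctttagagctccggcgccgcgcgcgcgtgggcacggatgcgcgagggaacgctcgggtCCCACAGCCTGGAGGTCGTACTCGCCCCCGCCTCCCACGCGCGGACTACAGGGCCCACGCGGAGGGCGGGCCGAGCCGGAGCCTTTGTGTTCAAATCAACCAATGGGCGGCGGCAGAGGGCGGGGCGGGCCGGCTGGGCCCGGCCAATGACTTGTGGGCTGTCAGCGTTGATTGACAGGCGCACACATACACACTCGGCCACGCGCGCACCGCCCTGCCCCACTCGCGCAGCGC
Dnal4 promoter: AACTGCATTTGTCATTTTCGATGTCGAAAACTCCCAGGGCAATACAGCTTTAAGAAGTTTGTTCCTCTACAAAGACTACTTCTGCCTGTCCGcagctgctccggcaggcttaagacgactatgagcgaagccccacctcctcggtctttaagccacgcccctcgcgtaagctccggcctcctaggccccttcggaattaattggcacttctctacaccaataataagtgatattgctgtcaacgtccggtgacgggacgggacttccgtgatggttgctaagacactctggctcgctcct
Neither window holds the AP-1 letters TGANTCA or the cAMP response element TGACGTCA on either strand. Of 32851 promoter windows of the same length, 7.81% hold the first and 1.79% the second. The absence says only that these letters are not in these windows. A window of Endov met a region of kainic acid replicate 2 near Nptx1 and held neither motif.

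Just inside the limit of 50 kb stood a region 47.1 kb from Nptx1 (replicate 2 only, fold 3.65), the Nptx2 region at 37.2 kb and the Sun2 region at 43.6 kb from Nptxr. Just outside stood a region 60.1 kb from Nptx1 in all 3 lists (folds 5.28, 10.3 and 7.55), a region 65.6 kb from Nptx2 in replicates 2 and 3 (4.05 and 2.41) and a region 50.2 kb from Nptxr in the same replicates (4.51 and 2.79).

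The best peak within 50 kb was compared between the genes by its rank in each list. It was taken in each list on its own and need not be the same site. Near Nptx1 it lay in the same region in all 3 kainic acid lists, near Nptx2 in a different region in each. Near Nptxr it lay in 1 region in replicates 1 and 2 and in another in replicate 3. For Nptx2 and Nptxr the means below are therefore not those of a single site. The mean over the kainic acid lists was 0.655% ± 0.613 for Nptx1, 2.56% ± 1.60 for Nptx2 and 11.2% ± 8.06 for Nptxr (SD, n = 3). The Nptx1 values did not reach those of Nptx2 in any list, and Nptx2 stood below Nptxr in every list. Across lists, the ranges of Nptx1 (0.0997% to 1.31%) and Nptx2 (1.21% to 4.33%) overlapped, and those of Nptx2 and Nptxr (4.86% to 20.2%) did not. The order was not tested. Of all protein-coding genes, 0.736% had a mean as low as that of Nptx1, 3.44% as low as Nptx2 and 13.8% as low as Nptxr, and the median gene was at 55.6%. A gene without a peak in a list was given 100% there.

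The genes closest to each pentraxin gene in these 3 ranks were found over all protein-coding genes. For Nptx1 they were Serpinf1, Serpinf2 and Smyd4, which are neighbours with the same best ranks (1.27%, 0.0728% and 0.347%), at a mean absolute difference of 0.0909 percentage points. For Nptx2 they were Zbtb20 (0.178 points), and the neighbours Cass4 and Rtf2 (0.207 points each). For Nptxr they were the clustered genes C1qa, C1qb and C1qc (0.303 points each). The likeness covers 3 lists and only the best peak of each list, which can come from different sites.

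Proteins that work with neuronal pentraxins were read from a list of 10 genes, of which 8 had a kainic acid region within 50 kb and 5 had one in all 3 lists, against 62.7% and 42.5% of protein-coding genes. The median was 2.5 regions per gene, against 1 over all genes. Of these genes, Gria1, Gria2, Gria3, Gria4 and Tnr have spans of 123 to 408 kb, against 9.10 to 18.4 kb for the pentraxin genes, and the part of span length in the counts was not tested. Among the AMPA receptor subunits, Gria1 (a span of 319 kb) had 37 kainic acid regions and a best peak at 2.37%, 3.32% and 2.21% in replicates 1, 2 and 3. Gria2 (123 kb) had 12, with the best peak at 14.6%, 11.3% and 23.9%. Gria4 (378 kb) had 2, neither of them in replicate 1, and Gria3 had 0, with 2 peaks in replicate 2 alone. The AMPA receptor subunit genes thus ran from none to many regions.

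The C1q-like synaptic ligands C1ql2 and C1ql3 had 2 and 4 regions, and the 4 of C1ql3 included 3 in all lists. Adam17, the protease that sheds receptor ectodomains, had 3 regions, all in 3 lists. Of the perineuronal net genes, the tenascin gene Tnr (408 kb) had 20, the aggrecan gene Acan 2 and the link protein gene Hapln1 0. The only saline peaks near the 10 genes were 2 of replicate 2 near Gria1. In 5 of the 10 genes every kainic acid list had more peaks than every saline list, against 33.5% of all protein-coding genes. Of the 4 other pentraxin genes, with spans of 1.09 to 5.92 kb, 1 had a kainic acid region, against 62.7% of all protein-coding genes. Crp, Apcs and Ptx4 had none, and Ptx3 had 2, of which 1 was in all 3 lists (best peak at 46.9%, 7.70% and 73.1%). Crp and Apcs, genes of blood pentraxins made in liver, had no peak in any list. Whether the families differ was not tested.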

How the data were processed

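Fos ChIP-seq of mouse hippocampus was deposited as 6 narrowPeak lists, 1 per library (3 saline, 3 kainic acid). An input library is labelled too and was not analysed here. Per the submitters' processing notes, Trim Galore 0.6.4, Bowtie2 2.3.4.3, MACS2, deepTools 3.5.0 and the build mm10 (the UCSC name of GRCm38) were used. Their settings and the control library are not given in the sources used here. Peak names carry a mapping quality of 30. Of the deposited values, the score repeats the −log10 q (10 times its value without decimals). The fold, as deposited by the authors, is the ratio of a summit to its local background. Like the deposited −log10 p and −log10 q it is a value within 1 library, not scaled to the others, so folds were only ranked within a list (rank divided by the number of peaks, in percent).

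Peaks overlapping by at least 1 bp were merged across lists. Genes came from a RefSeq table of GRCm38.p6, and 21887 protein-coding genes on the assembled chromosomes were counted. All 3 pentraxin symbols matched. Depth per library is not given. The reads over a summit (k) and the local background (λ) were recovered by taking the fold as (k + 1)/(λ + 1) and p as the Poisson tail above k, for 78 of 78 peaks near the genes within 0.001 in −log10 p (10 to 101 reads). This rests on an inferred model of the calling. Merging, counting and solving were tested on simulated data. Python 3.11.15, pandas 2.3.3 and scipy 1.17.1 were used.

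Peak numbers were compared with a two-sided exact permutation test. The members and lists were chosen with earlier results of these data known. Named are the members, each listed partner and other pentraxin gene, the gene at or nearest to a site, and the 3 genes closest to each member in best rank (no Gm or Rik names). The promoter windows of Sun2, Dnal4 and Endov were picked because they meet a counted region.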

Additional observations from a re-analysis of the deposited data

How the results depend on the processing

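The number of kainic acid regions depended on the definition. For Nptx1, 5 regions became 3 with summits within 200 bp, 2 at both cutoffs of −log10 q (5 and 10), 3 in all 3 lists, 3 with equal numbers of peaks, 1 within 10 kb and 9 within 100 kb. For Nptx2, 5 became 3 at a −log10 q cutoff of 10, 3 in all 3 lists, 2 within 10 kb and 11 within 100 kb. For Nptxr, 10 became 6 and 4 at −log10 q cutoffs of 5 and 10, 4 in all 3 lists, 5 with equal numbers and 3 within 10 kb. Leaving out 1 kainic acid library gave 3 to 5 for Nptx1, 3 to 5 for Nptx2 and 4 to 9 for Nptxr, since both remaining lists were then required.

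The share of protein-coding genes with a region was 60.7% with summits within 200 bp, 54.7% and 36.1% at −log10 q cutoffs of 5 and 10, 42.5% in all 3 lists, 47.5% with equal numbers, 40.0% and 74.7% within 10 and 100 kb, and 42.6% to 61.3% without 1 kainic acid library. Of the 10 partner genes, 3 had a region at a −log10 q cutoff of 10, 5 in all 3 lists and 5 to 8 without 1 library. The best rank moved beyond its SD within 10 kb, to 60.2% for Nptx1 and 38.0% for Nptxr, where replicate 1 had no peak within 10 kb of either gene and was set to 100%. Of 85 alternative values, 47 stayed within their limits (for counts a ratio of 1.5), 38 moved and 0 reversed. Counts, shares and ranks have no sign, so only the difference in peaks between the groups has a direction to reverse. Leaving out a library could not reverse it, since every kainic acid list held more of these peaks than every saline list.

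The difference in peaks, 1.06 on the log10 scale, ran from 0.922 to 1.34 with 1 library left out. Its test cannot pass 0.05 at this size. With the replicate block it was 1.06 (exact sign-flip permutation p = 0.25, the smallest that 3 pairs allow). Deviations of same-numbered libraries over 21887 genes correlated at 0.354, 0.347 and 0.0137, and saline replicate 3 correlated at 0.354 with kainic acid replicate 1. With 7 and 2 peaks in saline replicates 1 and 3, these correlations cannot decide whether libraries were paired. The libraries share only a number in their labels, so the numbers were not treated as pairs. The short saline lists, with 7 and 2 peaks, limit every comparison with saline.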

Other observations

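Beyond the reach of 50 kb, Nptx2 had a site of better mean rank than any within it. The region at chr5:144639337-144640271, 81.9 kb from the higher-coordinate end of Nptx2, was in all 3 kainic acid lists with folds of 9.56, 19.0 and 11.7, and ranked at 2.23%, 0.445% and 0.874%. In replicate 1 the region 17.3 kb from Nptx2 ranked slightly better, at 2.15%. The region at 81.9 kb was in no saline list. With a reach of 100 kb the mean best rank near Nptx2 was 1.15%, against 2.56% within 50 kb. Another 2 regions of Nptx2 beyond 50 kb were in all 3 lists, at 74.0 kb (folds 5.04, 8.91 and 6.36) and at 90.2 kb (3.23, 6.91 and 4.18). Near Nptxr no region between 50 and 100 kb was in all 3 lists, and near Nptx1 it was the one at 60.1 kb and another at 75.1 kb (4.66, 5.24 and 3.83). The region at 81.9 kb was named after its values were seen.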
